A study of Mus musculus with 14 samples.

Results

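Chemokines are small secreted proteins that attract leukocytes by binding receptors on their surface. The 10 chemokine genes described here are Cxcl1, Cxcl2 and Ppbp, Ccl3, Ccl4 and Ccl5, Cxcl9 and Cxcl10, Cxcl16, and Ccl22. They were selected by symbol from the 14084 genes in the count table of a mouse stroke time course. All 10 were found and all 10 passed the filter on low counts, which left 13861 genes for testing. The RNA came from microglia, the resident macrophages of the brain, which were purified from cerebral cortex by fluorescence-activated sorting. The mice were C57BL/6 with a labelled age of 8 to 10 weeks. In the 6 stroke groups, labelled day 1, 3, 7, 21, 60 and 90, the far branch of the middle cerebral artery was tied off for good and both common carotid arteries were closed for 7 min. Animals of the sham group had only their skull surface lesioned. Each of the 7 groups had 2 libraries, 14 in all. The sources used here do not give the sampling time of sham animals or the sort markers and gate. Whether 2 libraries of a group are 2 animals is not stated either, and p-values therefore reflect only how far these samples spread, possibly for technical reasons.

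CXC chemokines that carry a glutamate-leucine-arginine motif, Cxcl1, Cxcl2 and the product of Ppbp among them, bind Cxcr2 and are known for recruiting neutrophils. Ppbp encodes the precursor of platelet basic protein, a chemokine stored in platelet granules. Ccl3, Ccl4 and Ccl5 attract monocytes, macrophages and T cells, and Ccl3 and Ccl5 bind Ccr1. Cxcl9 and Cxcl10 are interferon-inducible ligands of Cxcr3 on T and natural killer cells, and Cxcl10 can also be switched on by NF-kB, the transcription factor family that many inflammatory signals activate. Cxcl16 is made as a membrane protein that can be shed by metalloproteases and binds Cxcr6 on T cells, and Ccl22 binds Ccr4 and is a typical product of activated dendritic cells and macrophages.

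Promoter sequences were available for 7 of the 10 genes in the RefSeq table of the GRCm38.p6 build. Ccl4, Ccl5 and Cxcl16 were not matched. The stretches just upstream of the start of 4 genes on chromosome 5 are shown because these genes had different time courses: Cxcl1 and Cxcl2, which are next to each other, Cxcl10, whose course differed from theirs at late times, and Ppbp, which nearly vanished from day 7. Capitals mark matches to the NF-kB consensus and, in Cxcl10, also to GAAANNGAAA, a form of the interferon-stimulated response element. All sequences read 5′ to 3′ on the strand of the gene.
Cxcl1, chr5:90891125-90891244, plus strand, from 120 bases to 1 base before the start: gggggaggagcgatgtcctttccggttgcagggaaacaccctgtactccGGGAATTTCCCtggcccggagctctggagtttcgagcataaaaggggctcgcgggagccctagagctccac
Cxcl2, chr5:90903779-90903898, plus strand, from 120 bases to 1 base before the start: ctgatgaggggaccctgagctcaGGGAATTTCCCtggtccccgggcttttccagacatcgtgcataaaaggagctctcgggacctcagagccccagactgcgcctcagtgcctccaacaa
Cxcl10, chr5:92348970-92349119, minus strand, from 230 to 81 bases before the start: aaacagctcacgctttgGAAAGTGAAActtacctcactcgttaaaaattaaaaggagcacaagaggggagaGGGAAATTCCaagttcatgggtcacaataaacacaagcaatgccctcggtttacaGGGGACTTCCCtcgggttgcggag
Ppbp, chr5:90768398-90768517, plus strand, from 120 bases to 1 base before the start: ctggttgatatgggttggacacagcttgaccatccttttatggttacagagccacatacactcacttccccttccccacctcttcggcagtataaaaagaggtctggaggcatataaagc

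Cxcl1 and Cxcl2 both held GGGAATTTCC, 71 to 62 bases before the start of Cxcl1 and 97 to 88 bases before the start of Cxcl2, inside the 14-base stretch gggaatttccctgg that was the longest run their upstream windows shared. On the other strand the same letters gave a second, overlapping match to the NF-kB consensus, shifted by 1 base. Cxcl10 held GAAAGTGAAA at 213 to 204 bases before its start and NF-kB matches at 159 to 150 and at 104 to 95 bases, the latter overlapping matches on both strands that were shifted by 1 base. Matches were sought on both strands of windows from 250 bases before to 50 bases after each start. The NF-kB consensus was found in 8.46% of 32851 promoters and in 3 of these 7 genes, and GAAANNGAAA in 3.44% and 1 of 7. GGGAATTTCC was found in 0.0883% of the promoters and in 2 of 7. These letters were taken from the Cxcl1 promoter itself, so the match there was fixed in advance. The count of 2 is therefore no test of enrichment. A match describes letters only and is not evidence of binding.

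Libraries of the same replicate number were alike in depth, with total counts of 15254983 to 28758420 in replicate 1 and 100625099 to 191692779 in replicate 2. At these totals 3 counts equal 0.104 to 0.197 CPM (read counts scaled to a common library size) in replicate 1 and 0.0157 to 0.0298 CPM in replicate 2, limits that cover counting error only. The sham libraries stood apart from all others on the first principal component, which held 28.5% of the variance. Of 11 defining microglia markers all were detected in every group, but they summed to 1539 to 2551 CPM in sham against 2621 to 26434 CPM in the 12 stroke libraries. The 13 neutrophil markers in the table summed to 17202 to 30071 CPM in sham and to 371 to 6990 CPM after stroke. In the sham libraries the neutrophil marker sum was thus above the microglia marker sum. Sums over different genes do not give the share of RNA from either cell type. The 2 erythroid markers in the table had 198 to 206 CPM in sham and at most 4.41 CPM elsewhere. The part of these marker differences in the chemokine values against sham was not tested, and for that reason late times were also compared with early times without use of sham means. In bulk RNA, fewer cells of a type and less RNA per cell cannot be told apart.

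Gene levels below are CPM scaled by TMM factors, given for replicate 1 and then replicate 2. Sums over marker lists are CPM without these factors. Differences are log2 fold changes ± 1 standard error. A gene was called, or is said to have risen or fallen, at an adjusted p under 0.05 in edgeR's quasi-likelihood test, with Benjamini-Hochberg adjustment over all 13861 genes, and every adjusted p is from that test unless another is named.

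Of the 10 chemokine genes, 9 differed among the 7 groups in the joint test, against 7.21% of all genes. The exception was Ccl5 (edgeR adjusted p = 0.0872). Against sham, 6 were higher and 0 lower at day 1 and the same 6 at day 3, namely Cxcl1, Ccl3, Ccl4, Cxcl10, Cxcl16 and Ccl22. Among all genes 3.18% were called higher and 1.37% lower at day 1, and 5.20% and 3.07% at day 3. At day 7 only Cxcl16 and Ccl22 were called higher and Cxcl2 and Ppbp lower, where 7.00% and 5.63% of all genes were. At day 21 Ccl3, Ccl4, Cxcl10, Cxcl16 and Ccl22 were higher and Ppbp lower, against 5.00% and 1.44% of all genes. The count at day 60 was 6 higher, these 5 and Cxcl9, and 1 lower, Ppbp, against 4.96% and 2.89%. At day 90 it was back to 2 higher (Cxcl16 and Ccl22) and 2 lower (Cxcl2 and Ppbp), against 5.12% and 2.73%. In the plot of levels by library, the group means of Ccl3, Ccl4 and Cxcl10 go up, down, up and down again in this order. Their 2 libraries of day 21 differed 3.87-, 4.06- and 3.58-fold, and those of Ccl3 overlapped day 7. By edgeR the dip at day 7 against days 1 and 3 was called for none of these genes. Day 90 was not tested against day 60, nor day 21 against day 7.

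**Figure D1:**
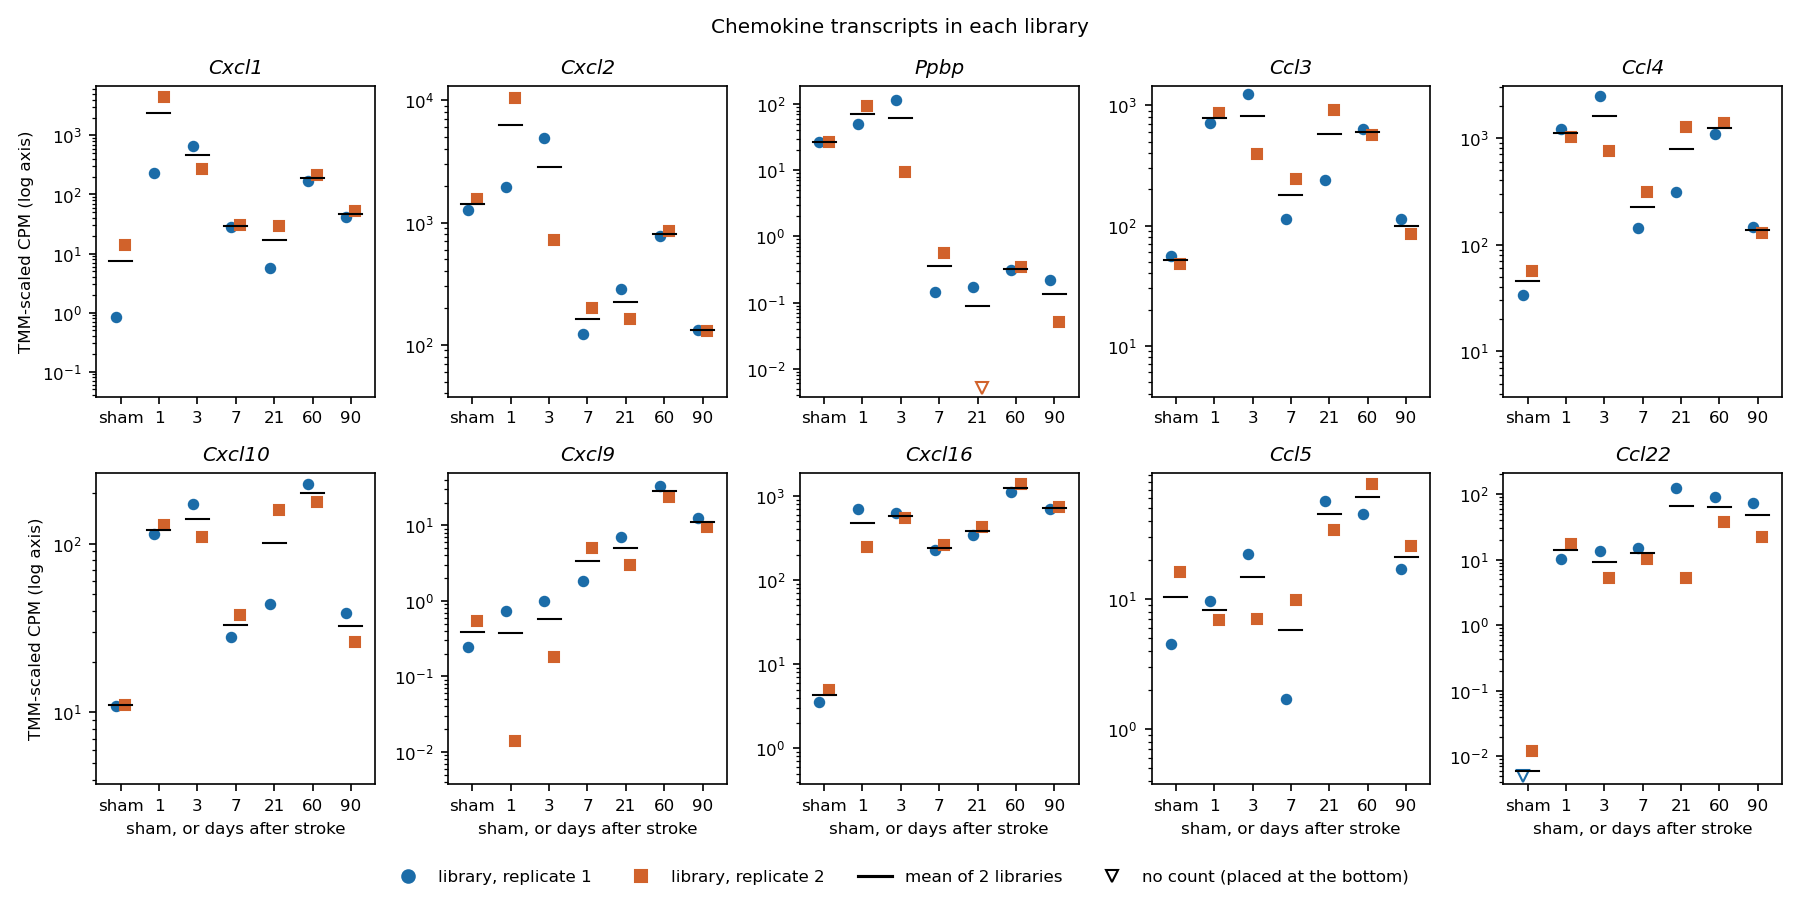
TMM-scaled CPM (log axis) of the 10 chemokine genes in each of the 14 libraries, by group, where circles are replicate 1, squares replicate 2, black bars the mean of the 2 libraries, and open triangles libraries with no count. Cxcl16 and Ccl22 lie above sham in all 12 stroke libraries, Ppbp falls below 1 CPM from day 7, and Cxcl9 is highest at day 60.

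The median log2 fold change of the 10 genes was, in time order, 3.70, 3.83, 1.89, 3.34, 4.43 and 1.58. Over all genes tested the medians were 0.04, 0.15, 0.06, 0.06, 0.14 and 0.11. Upper-quartile scaling moved the median of all genes up by 0.13, 0.15, 0.22, 0.10 and 0.20 for days 3, 7, 21, 60 and 90, and it reversed the direction of no chemokine gene. These counts rest on both sham libraries. When either was left out in turn, the number of chemokine genes called was 1 at days 1, 7, 21 and 90, 1 or 2 at day 3 and 2 at day 60, and Cxcl16 was among them at every time.

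**Figure D2:**
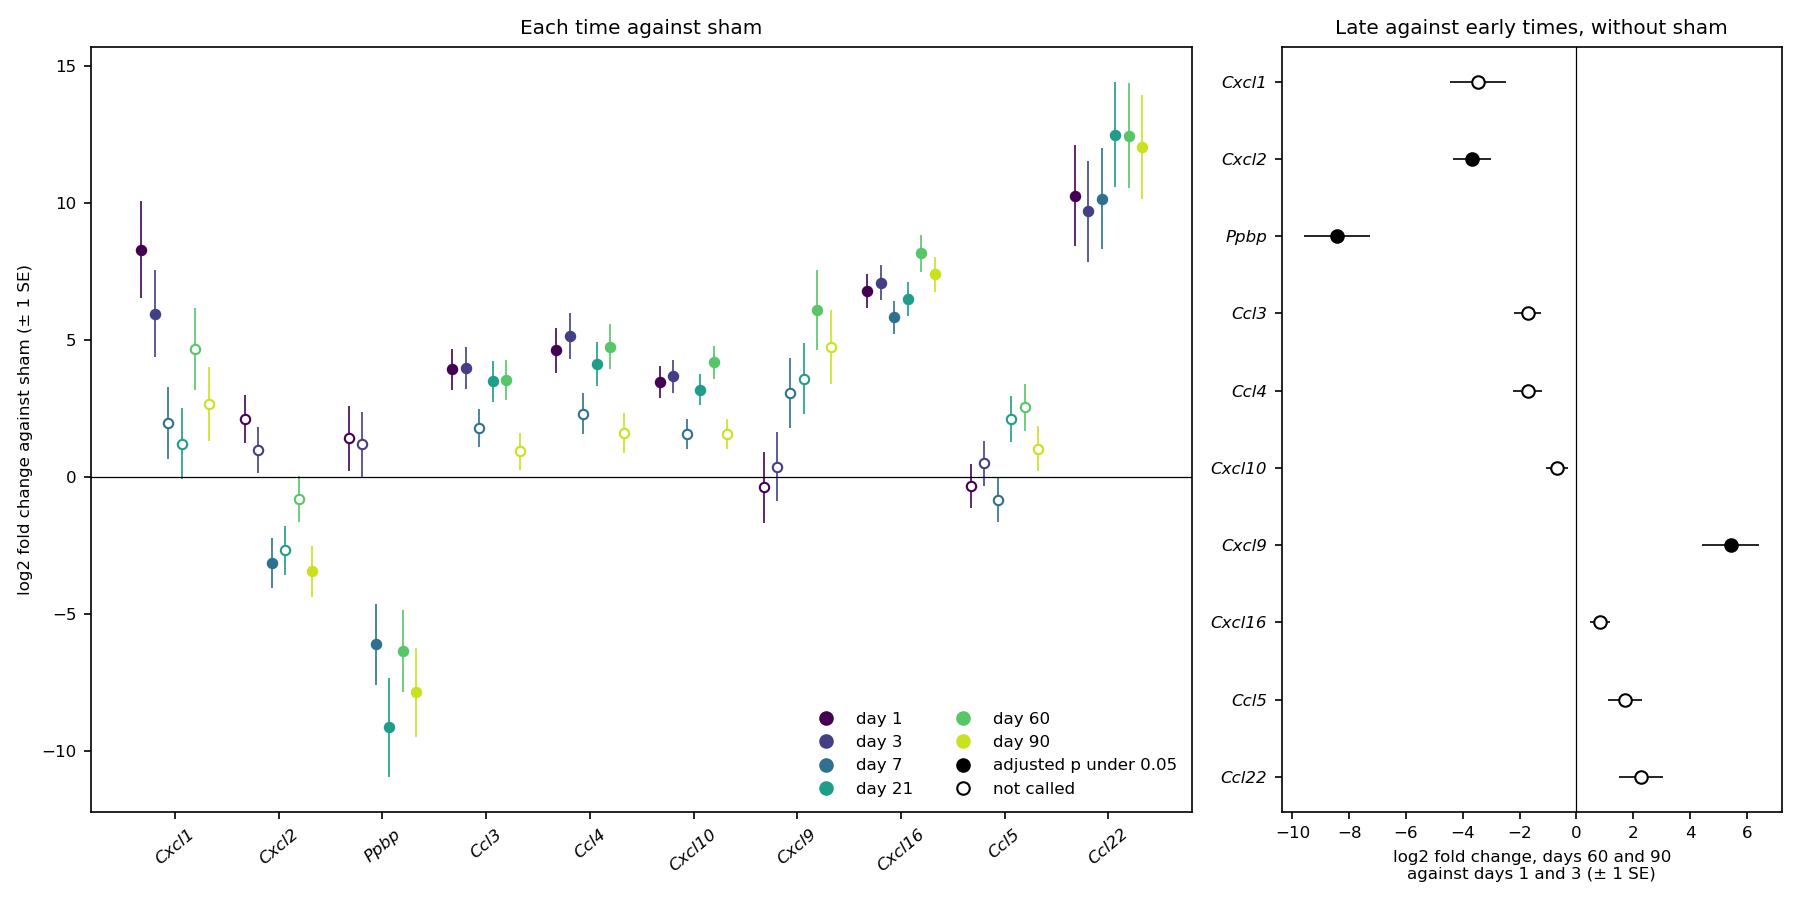
Log2 fold changes of the 10 chemokine genes with ± 1 standard error, for each time against sham on the left and for days 60 and 90 against days 1 and 3 on the right, where filled points passed an adjusted p of 0.05. Values of Ccl22 against sham are fitted from a single count in sham, and on the right Cxcl2 and Ppbp are called lower at the late times and Cxcl9 higher.

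Cxcl2, a neutrophil attractant, was by far the most abundant of the 10 in sham and was called at no time as higher. It had 1274 and 1568 CPM in sham, 1963 and 10476 at day 1, 4928 and 713 at day 3, 123 and 199 at day 7, 284 and 163 at day 21, 774 and 849 at day 60 and 133 and 129 at day 90. Both day 1 libraries lay above both sham libraries, the day 3 libraries lay on either side of them, and all libraries from day 7 on lay below. The fall was called at day 7 (-3.14 ± 0.91, edgeR adjusted p = 0.0432) and day 90 (-3.44 ± 0.93, adjusted p = 0.0430), not at day 21 (-2.67 ± 0.90, adjusted p = 0.0957) or day 60 (-0.81 ± 0.85, adjusted p = 0.578). DESeq2 also called it lower at day 21. Both calls were lost when either sham library was left out (adjusted p from 0.115 to 0.131) and when any library of days 7, 60 or 90 was (0.0602 to 0.237). Within replicate 1 the log2 fold change was -3.37 at day 7 and -3.26 at day 90, and within replicate 2 it was -2.98 and -3.61. Beside these values, the neutrophil marker sum was 1106 to 6156 CPM at day 1, 371 to 903 at day 7, 843 to 925 at day 60 and 3969 to 4390 at day 90, all below the 17202 to 30071 CPM of sham, and its part in the level of Cxcl2 was not tested.

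Cxcl1, which signals through the same receptor, started from far lower levels than its neighbour. It had 0.849 and 13.8 CPM in sham, 228 and 4470.0 at day 1, 652 and 274 at day 3, 28.3 and 30.1 at day 7, 5.63 and 28.7 at day 21, 167 and 210.0 at day 60 and 41.9 and 52.1 at day 90. The 2 libraries of sham differed 16.3-fold and those of day 1 differed 19.6-fold, the latter being the widest spread of this gene. Cxcl1 rose at day 1 (8.31 ± 1.76, edgeR adjusted p = 0.0257) and day 3 (5.97 ± 1.58, adjusted p = 0.0441). These sizes depended on single libraries. At day 1 the difference was 4.94 without replicate 2 of that day and 11.43 without sham replicate 2, and at day 3 it was 5.08 without sham replicate 1 and 9.09 without sham replicate 2. At day 60 both libraries again lay above sham, with a difference that was not called (4.67 ± 1.49, adjusted p = 0.0805). It was called there by DESeq2, the other count test run, and without either day 1 library (adjusted p = 0.0322 in both fits). With either sham library left out neither call remained (adjusted p from 0.0584 to 0.163), and the call at day 3 was also lost without any library of days 3, 7, 60 or 90 (0.0644 to 0.121). Within replicate 1 the differences were 8.03 at day 1 and 9.54 at day 3, and within replicate 2 they were 8.33 and 4.31.

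Per kilobase of exon, Cxcl2 exceeded Cxcl1 1361-fold and 103-fold in the sham libraries. In the stroke libraries the ratio was 7.80 and 2.12 at day 1, 6.86 and 2.36 at day 3 and between 2.24 and 6.01 at days 7, 60 and 90. Only replicate 1 of day 21, with a ratio of 45.8, came near sham. The excess of Cxcl2 over Cxcl1 was therefore larger in both sham libraries than in any of the 12 stroke libraries.

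Ppbp, the platelet chemokine gene, was measured at 26.7 and 27.2 CPM in sham, 49.9 and 93.1 at day 1 and 114 and 9.32 at day 3. It then had 0.145 and 0.563 CPM at day 7, 0.174 and 0 at day 21, 0.306 and 0.339 at day 60 and 0.220 and 0.0501 at day 90. These late values rest on 3 and 68 counts at day 7, 4 and 0 at day 21, 8 and 42 at day 60 and 8 and 10 at day 90. All 8 libraries from day 7 on were below all 6 earlier ones. Ppbp fell against sham at day 7 (-6.11 ± 1.48, edgeR adjusted p = 0.0240), day 21 (-9.14 ± 1.81, adjusted p = 0.0172), day 60 (-6.37 ± 1.50, adjusted p = 0.0299) and day 90 (-7.87 ± 1.63, adjusted p = 0.0179). At days 1 and 3 the differences were 1.41 ± 1.19 and 1.19 ± 1.18 and were not called. The 4 calls were lost when either sham library was left out (adjusted p from 0.0661 to 0.113), and also without either library of day 7, 60 or 90 at that time (0.0992 to 0.217) and without replicate 2 of day 21 (0.0674). At day 21 the difference of Ppbp was -7.25 without that library and -14.14 without replicate 1. Within replicate 1 the 4 differences lay between -7.29 and -6.33, and within replicate 2 between -10.09 and -5.53.

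Platelet markers were measured in the same libraries. Itga2b, the platelet integrin, had 30.4 and 33.3 CPM in sham and at most 1.98 CPM in any stroke library. Gp9, of the platelet receptor for von Willebrand factor, had at least 2.95 CPM in both sham libraries and at most 0.778 after stroke. Tubb1, the platelet tubulin, had 28.6 CPM in sham replicate 1, less than that in replicate 2 (1097 counts), and at most 0.497 after stroke. At days 1 and 3 Ppbp had 9.32 to 114 CPM, and each of those 3 genes had at most 1.98 CPM. Of the 12 platelet markers tested, the number called lower was 4, 5, 8, 4, 5 and 4 in time order, and 1, Pf4, was called higher at days 1 and 3. Among all genes 1.37, 3.07, 5.63, 1.44, 2.89 and 2.73% were called lower in the same order. Pf4, the platelet factor gene next to Ppbp, which macrophages also express, had 7.88 and 16.0 CPM in sham, 530.1 and 251 at day 1, 1046 and 118 at day 3 and 1.44 to 94.7 CPM later. The whole list of 12 platelet markers, Pf4 included, summed to 98.4 to 128 CPM in sham, 254 to 458 at day 1, 139 to 975 at day 3 and 5.25 to 68.3 CPM from day 7 on. These sums are without TMM factors, unlike the Pf4 levels, which is why Pf4 alone can exceed them. Gp6 was at 0 in all libraries of days 1 and 3, and Gp5 in those of day 3. The part of platelet RNA in the Ppbp values was not tested.

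**Figure D3:**
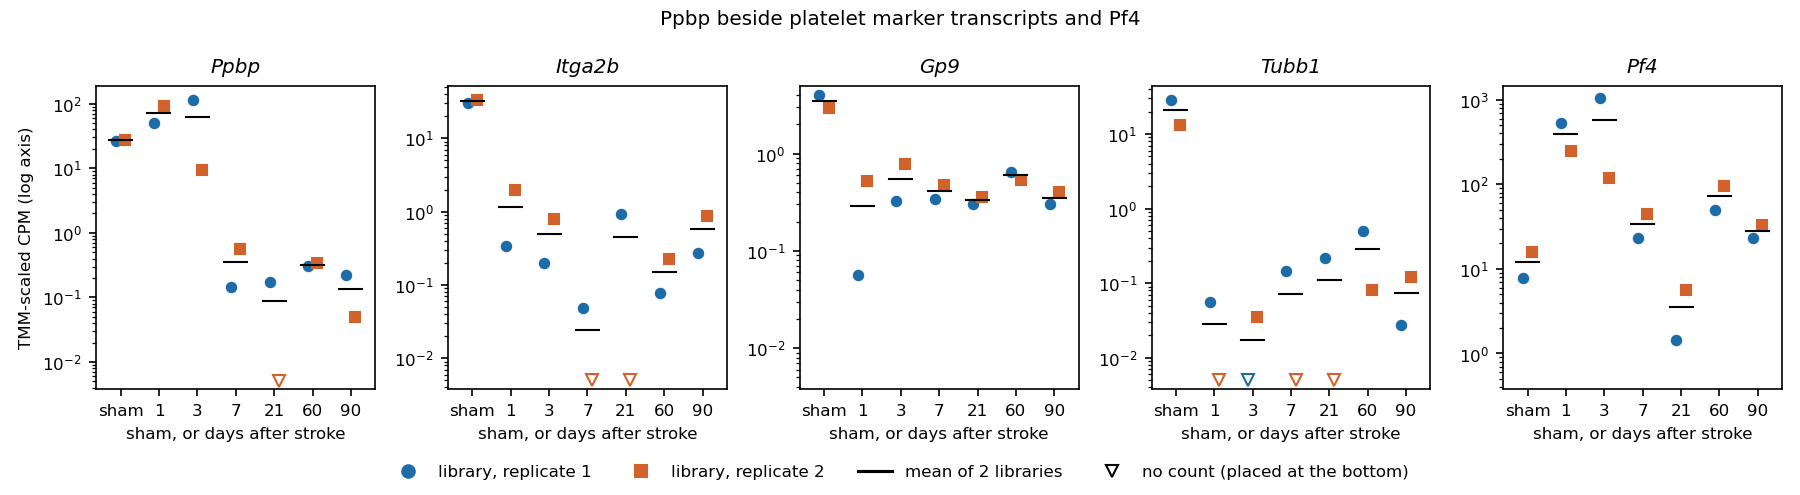
TMM-scaled CPM (log axis) of Ppbp, of the platelet genes Itga2b, Gp9 and Tubb1, and of Pf4 in the 14 libraries, with circles for replicate 1, squares for replicate 2, bars for the mean and open triangles for no count. Itga2b, Gp9 and Tubb1 are highest in the 2 sham libraries, while Ppbp and Pf4 are also high at days 1 and 3.

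Ccl3 and Ccl4, the genes of the macrophage inflammatory proteins, are next to each other on chromosome 11 and followed nearly the same course. Ccl3 had 55.8 and 47.5 CPM in sham, 707 and 868 at day 1, 1232 and 396 at day 3, 113 and 245 at day 7, 239 and 924 at day 21, 633 and 567 at day 60 and 112 and 85.4 at day 90. All 12 stroke libraries lay above both sham libraries. Ccl3 rose 15.2-fold at day 1 (3.93 ± 0.75, edgeR adjusted p = 0.0143), 15.8-fold at day 3 (3.98 ± 0.75, adjusted p = 0.00989), 11.3-fold at day 21 (3.49 ± 0.74, adjusted p = 0.0196) and 11.6-fold at day 60 (3.54 ± 0.74, adjusted p = 0.0174). At day 7 (1.79 ± 0.69, adjusted p = 0.107) and day 90 (0.94 ± 0.67, adjusted p = 0.409) it was not called, although the former was without replicate 1 of day 21 (0.0479).

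Ccl4 had 34.0 and 56.5 CPM in sham, 1214 and 1029.6 at day 1, 2471 and 747 at day 3, 142 and 308 at day 7, 313 and 1271 at day 21, 1079 and 1378 at day 60 and 145 and 129 at day 90. Again each stroke library was higher than both sham libraries. The rise was called at day 1 (4.63 ± 0.82, edgeR adjusted p = 0.0101), day 3 (5.15 ± 0.84, adjusted p = 0.00545), day 21 (4.13 ± 0.80, adjusted p = 0.0135) and day 60 (4.76 ± 0.82, adjusted p = 0.00673). The largest of these, at day 3, was 35.6-fold. At day 7 (2.31 ± 0.74, adjusted p = 0.0593) and day 90 (1.60 ± 0.72, adjusted p = 0.183) it was not called. DESeq2 called the difference of Ccl4 at day 7, as did the edgeR test with upper-quartile scaling and without any library of days 3 or 21 (adjusted p from 0.0226 to 0.0462).

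Leaving out either sham library ended all 4 calls of Ccl3 (adjusted p from 0.0789 to 0.155) and all of Ccl4 but that at day 3 without sham replicate 2 (0.0482 to 0.103). Without replicate 2 of day 21, the higher library there, the day 21 calls were lost for Ccl3 (2.21, adjusted p = 0.127) and Ccl4 (2.79, adjusted p = 0.0699), and without either day 60 library so was that of Ccl3 at day 60 (0.0657 and 0.0674). Within replicate 1 the called differences of Ccl3 lay between 2.09 and 4.46 and those of Ccl4 between 3.20 and 6.18. Within replicate 2 they lay between 3.06 and 4.28 for Ccl3 and between 3.73 and 4.61 for Ccl4. The ratio of Ccl4 to Ccl3 per kilobase was 0.707 and 1.38 in the sham libraries and 1.38 to 2.82 in the stroke libraries.

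Ccl5, the T cell and macrophage chemokine RANTES, did not follow Ccl3 and Ccl4. It had 4.49 and 16.2 CPM in sham, 9.70 and 6.87 at day 1, 22.4 and 7.08 at day 3, 1.70 and 9.94 at day 7, 56.7 and 34.3 at day 21, 45.1 and 77.1 at day 60 and 17.1 and 25.5 at day 90. The libraries of days 1, 3 and 7 overlapped those of sham, and all 6 libraries of days 21, 60 and 90 lay above them. None of these differences was called by edgeR, the largest being 2.56 ± 0.86 at day 60 (adjusted p = 0.0876) and 2.13 ± 0.85 at day 21 (adjusted p = 0.146). DESeq2 called Ccl5 at day 60. At day 1 its difference was 1.11 within replicate 1 and -1.23 within replicate 2. At day 60 it was 3.32 and 2.25. The 14 T and natural killer cell markers were likewise highest from day 21 on, though most of all at day 90. They summed to 62.8 to 91.0 CPM in sham, 33.7 to 37.8 at day 1, 21.6 to 30.4 at day 3, 34.6 to 60.3 at day 7, 101 to 199 at day 21, 130.4 to 148 at day 60 and 232 to 246 at day 90. All 14 were detected in every group. The part of T cell RNA in the level of Ccl5 was not tested.

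Cxcl10, an attractant of activated T cells, had 10.9 and 11.1 CPM in sham, 114 and 128 at day 1, 171 and 109.7 at day 3, 28.1 and 37.5 at day 7, 44.0 and 157 at day 21, 224 and 176 at day 60 and 38.7 and 26.2 at day 90. All 12 stroke libraries were higher than both sham libraries. Cxcl10 rose at day 1 (3.46 ± 0.59, edgeR adjusted p = 0.00875), 12.8-fold at day 3 (3.68 ± 0.59, adjusted p = 0.00520), 9.16-fold at day 21 (3.20 ± 0.58, adjusted p = 0.0106) and 18.2-fold at day 60 (4.19 ± 0.61, adjusted p = 0.00341). It was not called at day 7 (1.58 ± 0.55, adjusted p = 0.0788) or day 90 (1.56 ± 0.55, adjusted p = 0.0980), although both were called without either library of day 21 (0.0242 to 0.0313) and DESeq2 called day 7. Its calls at days 1, 3 and 21 were lost and that at day 60 was kept when either sham library was left out (adjusted p from 0.0425 to 0.104), and that at day 21 was also lost without replicate 2 of that day (adjusted p = 0.0595). Within replicate 1 the called differences lay between 2.01 and 4.36, and within replicate 2 between 3.31 and 3.99.

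Cxcl9, the other Cxcr3 ligand, was scarcely detected early and appeared late. It had 0.243 and 0.535 CPM in sham, 0.738 and 0.0138 at day 1, 0.987 and 0.180 at day 3, 1.84 and 4.99 at day 7, 6.93 and 2.95 at day 21, 33.0 and 23.4 at day 60 and 12.6 and 9.43 at day 90. All 8 libraries from day 7 on lay above the 6 earlier ones. Against sham it rose 68.8-fold at day 60 (6.11 ± 1.45, edgeR adjusted p = 0.0282) and missed the threshold at day 90 (4.75 ± 1.37, adjusted p = 0.0538), day 21 (3.59 ± 1.30, adjusted p = 0.117) and day 7 (3.07 ± 1.28, adjusted p = 0.133). DESeq2 called those 3 times as well, and the edgeR test with upper-quartile scaling called day 90. The call at day 60 was lost without either sham library (adjusted p = 0.110 and 0.199) and without either day 60 library (0.0936 and 0.0944), while without either day 1 library the differences at days 7, 21 and 90 were called too (0.0125 to 0.0400), as was that at day 90 without either day 21 library (0.0396 and 0.0419). The T and natural killer cell marker sum given above was also higher at days 21, 60 and 90 than at days 1 and 3, and its part in the level of Cxcl9 was not tested. Within replicates 1 and 2 the difference at day 60 was 6.95 and 5.39.

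Per kilobase, Cxcl10 exceeded Cxcl9 60.3-fold and 27.7-fold in sham, and 206-fold and 12426-fold at day 1, where the larger ratio rests on 2 counts of Cxcl9. The ratio was 233 and 816 at day 3 and 20.4 and 10.1 at day 7. For days 21, 60 and 90 it was 8.50 and 71.3, 9.12 and 10.1, and 4.12 and 3.73. Cxcl10 lies inside Art3, a gene on the opposite strand, where whole genes with introns are compared. Overlap of their exons was not examined, the strand setting of the count is not given, and the part of shared reads was not tested. Art3 itself had at most 0.592 CPM in any library.

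Cxcl16 gave the steadiest difference from sham of the 10 genes. It had 3.58 and 4.93 CPM in sham, 700.1 and 246 at day 1, 628 and 539 at day 3, 227 and 259 at day 7, 344 and 427 at day 21, 1097 and 1376 at day 60 and 708 and 731 at day 90. The lowest stroke library was thus far above the highest sham library. Cxcl16 rose 111-fold at day 1 (6.79 ± 0.64, edgeR adjusted p = 0.000387), 137-fold at day 3 (7.09 ± 0.64, adjusted p = 0.000339), 57.0-fold at day 7 (5.83 ± 0.61, adjusted p = 0.000959), 90.3-fold at day 21 (6.50 ± 0.63, adjusted p = 0.000702), 289.7-fold at day 60 (8.18 ± 0.68, adjusted p = 0.000202) and 169-fold at day 90 (7.40 ± 0.65, adjusted p = 0.000218). It was called in all 12 fits that left out a sham library (adjusted p from 0.00593 to 0.0214) and in all 72 that left out a stroke library. Within replicate 1 its differences lay between 5.98 and 8.25, and within replicate 2 between 5.63 and 8.12. Zmynd15, on the opposite strand, overlaps Cxcl16 by 552 bases when whole genes with introns are compared. Zmynd15 had 0 and 0.309 CPM in sham and 5.43 to 96.4 CPM after stroke and was called higher at all 6 times. The strand setting of the count is not given, and the part of shared reads in the Cxcl16 counts was not tested.

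Ccl22, an attractant of regulatory and type 2 helper T cells, had no count in sham replicate 1 and 1 count in sham replicate 2. It had 10.4 and 17.3 CPM at day 1, 13.6 and 5.20 at day 3, 15.3 and 10.4 at day 7, 125 and 5.17 at day 21, 89.4 and 37.6 at day 60 and 73.6 and 21.9 at day 90. All stroke libraries were far above sham, and those of days 60 and 90 were above those of days 1, 3 and 7. From summed counts, the ratio to sham was 1886 at day 1 (95% counting interval 338 to 74511), 768 at day 3 (138 to 30353), 1196 at day 7 (214 to 47269), 3051 at day 21 (547 to 120530), 3830 at day 60 (687 to 151293) and 3701 at day 90 (664 to 146206). The single sham count sets the width of these exact intervals, which cover counting error only. Ccl22 was called higher at every time (edgeR adjusted p from 0.00495 to 0.0119), at none when either sham library was left out (0.0587 to 0.125), and in all 72 fits that left out a stroke library.

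The libraries of day 21 differed 24.3-fold in Ccl22, and dendritic cell markers differed with it. The 10 markers summed to 2138 CPM in replicate 1 and 347 CPM in replicate 2, and Ccr7, the receptor of migratory dendritic cells, had 725 and 15.7 CPM. In the other stroke groups the list summed to 166 to 657 CPM and in sham to 191 to 209 CPM, with all 10 markers detected in each group. Siglech, which microglia also express, was the only marker of this list called higher at any time. At day 1 the markers summed to 177 to 195 CPM. Other marker sums also differed between replicates 1 and 2 of day 21. Neutrophil markers had 6990 and 886 CPM, border-associated macrophage and monocyte markers 3872 and 680, and T and natural killer cell markers 199 and 101. Microglia markers went the other way with 7095 and 26434 CPM, as did B cell markers with 158 and 298. The difference was thus not particular to dendritic cell markers. The part of RNA from dendritic or other cells in the level of Ccl22 was not tested.

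The comparison of days 60 and 90 with days 1 and 3 asked how the late chemokine profile differed from the early one without the sham means. Of the 10 genes 1 was higher and 2 were lower at the late times, against 1.77% and 0.844% of all genes. Cxcl9 rose 42.9-fold (5.42 ± 1.01, edgeR adjusted p = 0.0149), and all 4 late libraries lay above all 4 early ones. Its difference was 4.82 without replicate 2 of day 1 and 7.62 without replicate 1. Ppbp fell by 8.42 ± 1.16 on the log2 scale (adjusted p = 0.00451), with no overlap of libraries. Cxcl2 fell by 3.68 ± 0.66 (adjusted p = 0.0129), although replicate 2 of day 3, at 713 CPM, lay below both day 60 libraries. The other 7 were not called: Cxcl1 at -3.47 ± 0.99 (adjusted p = 0.104), Ccl3 at -1.72 ± 0.49 (0.0926), Ccl4 at -1.71 ± 0.51 (0.109), Cxcl10 at -0.69 ± 0.38 (0.405), Cxcl16 at 0.84 ± 0.35 (0.251), Ccl5 at 1.71 ± 0.59 (0.165) and Ccl22 at 2.27 ± 0.79 (0.172).

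Within replicate 1 the late against early difference was 4.54 for Cxcl9, -8.05 for Ppbp and -3.27 for Cxcl2, and within replicate 2 it was 7.38, -7.48 and -3.05. The call of Cxcl9 was lost without either day 3 library (adjusted p = 0.0554 and 0.0649), that of Cxcl2 without any library of days 60 or 90 (0.0820 to 0.0925) and that of Ppbp without replicate 2 of day 60 (0.0511), which left 1 chemokine gene called. Without either or both of the day 21 libraries 6 were called: these 3 and Ccl3, Ccl4 and Ccl22. Without replicate 1 of day 1 the number was 5, these 3 with Cxcl1 and Cxcl16. DESeq2 called 8.

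The dip at day 7 was tested against days 1 and 3 together. By edgeR 0 of the 10 genes were called, as was only 1 of all genes tested (0.00721%). At an unadjusted p under 0.05 there were 8 of 10, against 1173 of the 13861 genes. DESeq2 called 6 (Ccl3, Ccl4, Cxcl1, Cxcl2, Cxcl10 and Ppbp), and 362 among all genes. The largest differences were -7.41 ± 1.53 for Ppbp (edgeR adjusted p = 0.162), -5.16 ± 1.47 for Cxcl1 (0.314) and -4.70 ± 0.95 for Cxcl2 (0.134). Both day 7 libraries lay below all 4 earlier ones for 6 genes and above them for Cxcl9 (3.07 ± 1.02, adjusted p = 0.390). The share of all genes with libraries separated in this way was not counted, so these positions only describe the single genes. Without replicate 1 of day 1 Cxcl2 and Cxcl9 were called (0.0299 and 0.0368), without replicate 2 of day 3 Cxcl2 was (0.0437), and without replicate 1 of day 21 Ppbp was (0.0499).

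Ordered by mean level, day 1 or day 3 came first for Cxcl1, Cxcl2, Ppbp, Ccl3 and Ccl4, day 60 for Cxcl9, Cxcl10, Cxcl16 and Ccl5, and day 21 for Ccl22. In 7 of the 10 the libraries of the leading group overlapped those of the next. The exceptions were Cxcl9, Cxcl10 and Cxcl16. Cxcl9 at day 60 (28.2 ± 6.77 CPM, SD, n = 2) lay above day 90 (9.43 and 12.6 CPM) with no overlap, and Cxcl16 at day 60 (1236.5 ± 197) lay above day 90 (719 ± 16.3) likewise. Cxcl10 at day 60 (200.1 ± 34.4) lay above day 3 (141 ± 43.6), though by no more than the spread between libraries. Sham came last for Ccl3, Ccl4, Cxcl10, Cxcl16, Ccl22 and Cxcl1, and the last 2 groups overlapped for Cxcl1 alone among these 6. For Cxcl2 the lowest groups were days 90 and 7, which overlapped, and for Ppbp they were days 21 and 90, which also overlapped.

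Divided by exon length, the levels of the 10 genes can be set against each other. Cxcl2 made up 79.4 and 78.8% of their summed CPM per kilobase in the sham libraries, 22.7 and 48.8% at day 1, 28.0 and 14.5% at day 3 and 2.27 to 11.7% later. Ccl4 led in 9 of the 12 stroke libraries, with 40.4 to 55.4%. Cxcl2 led in replicate 2 of day 1, where Cxcl1 reached 23.0%, and Cxcl16 led in both day 90 libraries with 30.9 and 35.0%. Ccl3 made up 6.44 and 9.39% in sham and 10.9 to 34.7% after stroke.

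**Figure D4:**
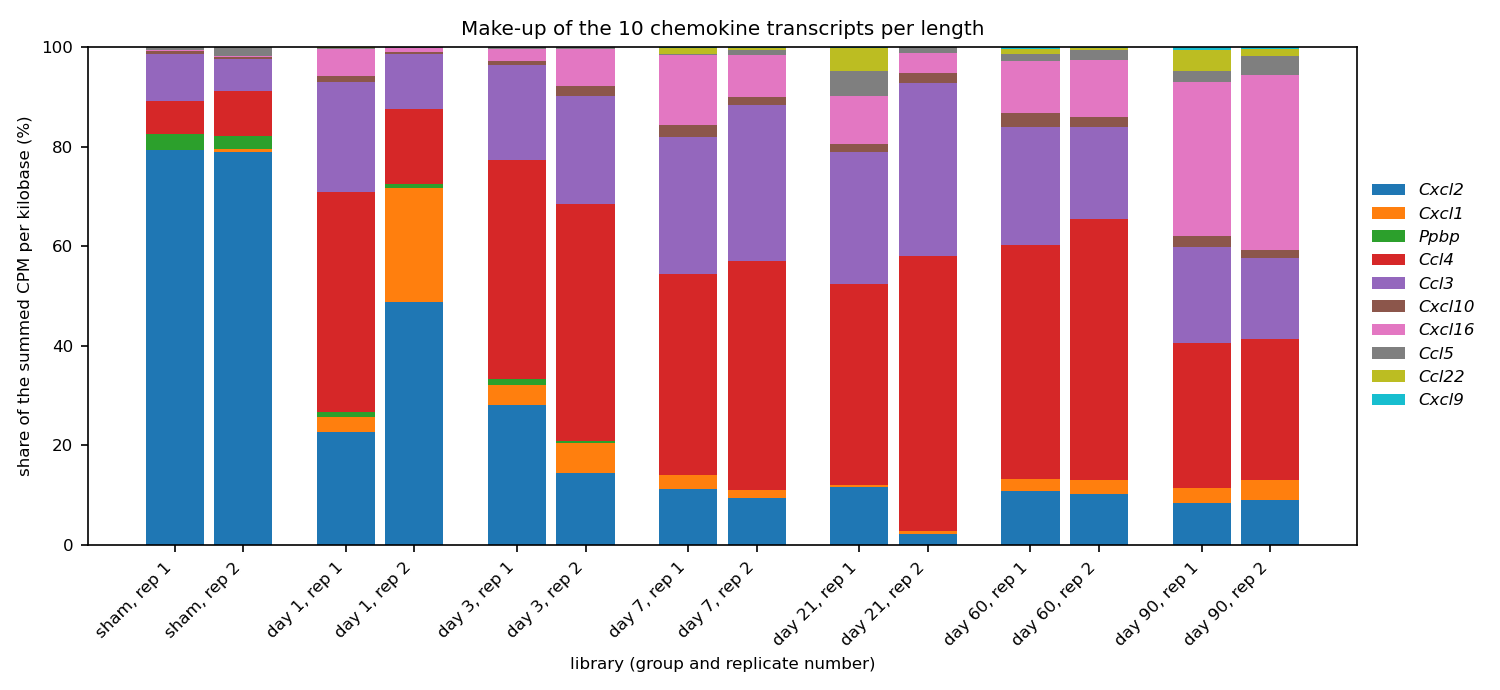
Share (%) of each chemokine gene in the summed CPM per kilobase of exon of the 10 genes, as 1 stacked bar per library. Cxcl2 fills 79.4 and 78.8% of the sham bars, Ccl4 and Ccl3 take most of the bars from day 3 to day 60, and Cxcl16 is largest at day 90.

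Across the 14 libraries, log2 CPM of Ccl3 and Ccl4 correlated with Pearson r = 0.98, of Ccl4 and Cxcl10 with 0.97, of Ccl22 and Cxcl16 with 0.92 and of Cxcl2 and Ppbp with 0.89. Cxcl9 and Ppbp had r = -0.76. Cxcl1 and Cxcl2, neighbours with the shared upstream letters, reached 0.53, and Cxcl9 and Cxcl10, ligands of 1 receptor, 0.14. These values describe 14 libraries that share groups, depth classes and the sham contrast, and no test was made of them.

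Among 7593 other genes whose log2 CPM averaged 3 or more, those whose levels followed each chemokine gene most closely were sought in the same 14 libraries. Each r given is among the largest of 7593 values, so its size comes partly from the selection, and none was tested. Tnf, the gene of tumor necrosis factor, led for Ccl3 (r = 0.94), and Tgif1, a transcriptional repressor gene, for Ccl4 (0.95). Dusp2, a phosphatase that switches off MAP kinases, led for Cxcl10 (0.96), followed by Tgif1 (0.95) and Gadd45b (0.93), and it was also among the closest 3 for Ccl3 (0.92) and Ccl4 (0.94). Zfand5 led for both Cxcl2 (0.94) and Ppbp (0.96), with Plaur, the urokinase receptor gene, also among the closest 3 for Cxcl2 (0.93). Tspan3, a tetraspanin, led for both Cxcl16 (0.97) and Ccl22 (0.94), Ifrd1 for Cxcl1 (0.94), Rpusd4 for Cxcl9 (0.93), and Tmem176b for Ccl5 at a lower 0.86.

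Of 11 receptors and scavengers of these chemokines 8 were tested. Against sham, 1 was higher and 0 lower at day 1, 2 and 1 at day 3, and 1 and 2 at day 7. The counts were 1 and 1 at day 21, 1 and 0 at day 60 and 2 and 2 at day 90. Over these times 3.18 to 7.00% of all genes were called higher and 1.37 to 5.63% lower. Not every called receptor is named here. Cxcr2, the receptor of Cxcl1, Cxcl2 and the Ppbp product and itself a neutrophil marker, had 1375 and 914 CPM in sham and fell at day 7 (-8.85 ± 1.79, adjusted p = 0.0137) and day 90 (-6.36 ± 1.61, adjusted p = 0.0396). Ccr1 fell at day 90 (-4.56 ± 1.25, adjusted p = 0.0478), and Ccr3, the eotaxin receptor, which also binds Ccl5, fell at days 3, 7 and 21. Ccrl2, an atypical receptor, rose at day 3 (2.15 ± 0.58, adjusted p = 0.0412).

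Cxcr6, the receptor of Cxcl16, had 0.303 and 0.868 CPM in sham, 0.0567 and 1.15 at day 1, 10.2 and 6.60 at day 60 and 19.4 and 11.4 at day 90. It rose at day 90 (4.65 ± 1.23, edgeR adjusted p = 0.0405) and between early and late times (3.90 ± 0.84, adjusted p = 0.0299). Of 14 T and natural killer cell markers, 9 were also higher at the late times, against 1.77% of all genes. The part of these markers' cells in the level of Cxcr6 was not tested. Cxcr3 was called in no comparison, and Ccr4, the receptor of Ccl22, had at most 0.275 CPM in any library.

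The 20 other chemokine ligands tested gave 7 higher and 0 lower at days 1 and 3, 6 and 2 at day 7, 6 and 1 at day 21, 6 and 0 at day 60 and 7 and 0 at day 90. Between 3.18% (day 1) and 7.00% (day 7) of all genes were called higher at these times and between 1.37 and 5.63% lower. The median log2 fold change of these 20 ligands was 3.78, 1.01, 3.02 and 1.89 for days 1, 7, 60 and 90. Between early and late times Ccl2, the main monocyte attractant (-4.88 ± 0.49, edgeR adjusted p = 0.000549), Ccl7 (-4.05 ± 0.58, adjusted p = 0.00389) and Pf4 (-3.40 ± 0.68, adjusted p = 0.0216) were lower. Cxcl13, the B cell attractant (9.94 ± 1.10, adjusted p = 0.00132), and Cxcl12 (5.27 ± 1.02, adjusted p = 0.0222) were higher. Of all genes 0.844% were lower and 1.77% higher in that comparison. B cell markers were higher at the late times as well, 5 of 7 tested, and their part in these values was not tested. The neutrophil-attracting Cxcl3, the closest relative of Cxcl2 in sequence, had 15.4 and 341 CPM in sham and 382 and 4589 at day 1 and was not called. Cxcl2 shares 5.84% of its 50-base words with Cxcl3, and how reads were assigned between them was not tested.

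Of 22 genes of the NF-kB pathway and its feedback, 4 were higher and 0 lower at days 1, 3, 21 and 60, 3 and 4 at day 7, and 2 and 1 at day 90, with medians of 0.31, 0.26, -0.83, 0.18, -0.02 and -0.28 in order of time. The all-gene shares were 3.18 to 7.00% higher and 1.37 to 5.63% lower, with median log2 fold changes of 0.04 to 0.15. Between early and late times 5 of the 22 were called, all lower, against 0.844% of all genes: Tnf (-2.71 ± 0.43, edgeR adjusted p = 0.00675), Il1a (-2.39 ± 0.53, adjusted p = 0.0360), Nfkbia, the inhibitor that NF-kB itself induces (-2.19 ± 0.38, adjusted p = 0.0114), Il1b (-2.05 ± 0.44, adjusted p = 0.0298) and Nfkbiz (-1.96 ± 0.46, adjusted p = 0.0473). At day 7 Il1b fell (-4.09 ± 0.67, adjusted p = 0.00484), with Tnfaip2, Bcl3 and Birc3, while 3 genes of the list were called higher. Tnf, lower late than early, averaged 27.9 CPM in sham, 1089 at day 1, 1328 at day 3 and 184 at day 7. Its later means were 339 CPM at day 21, 432 at day 60 and 78.5 at day 90.

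Of 22 interferon pathway genes, 1 was higher and 1 lower at day 1, 1 and 3 at day 3, 1 and 4 at day 7, 2 and 0 at day 21, 2 and 1 at day 60 and 1 and 4 at day 90, with medians of -0.84, -1.20, -1.02, -0.35, 0.06 and -0.87. Among all genes, by comparison, 3.18 to 7.00% were called higher over the 6 times and 1.37 to 5.63% lower. Gbp5, a guanylate-binding protein induced by interferon gamma, rose at day 21 (2.77 ± 0.61, adjusted p = 0.0234), day 60 (2.54 ± 0.60, adjusted p = 0.0281) and between early and late times (2.25 ± 0.42, adjusted p = 0.0150). Ifnb1, the gene of interferon beta, had no count in sham, 10.6 to 15.6 CPM at day 1, 6.63 to 43.7 at day 3, 0.920 to 2.62 at days 7 and 21, 19.7 to 27.8 at day 60 and 1.73 to 1.89 at day 90.

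Of 7 genes listed as chemokine shedding proteases, Adamts1 rose at days 3, 7 and 21, and Mmp9, a granule protease of neutrophils, fell at day 7 (-7.10 ± 1.51, edgeR adjusted p = 0.0144) and day 60 (-5.78 ± 1.42, adjusted p = 0.0331). Adam10 and Adam17, the sheddases of Cxcl16, were called in no comparison. Against sham the list gave no other call, and its median lay between -0.29 and 1.18.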

How the data were processed

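Total RNA of sorted cortical microglia was sequenced in 14 libraries, 2 in each of 7 groups. The authors deposited raw read counts per gene, made, per the submitters' processing notes, with HTSeq 0.6.1 after Bowtie2 2.3.4.2 on mm9; the strand setting is not given in the sources used here. The deposited table equals each library's own file for all 14084 genes and held 0 columns of other samples. The 10 genes and all gene lists were chosen with earlier results of these data known.

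In R 4.3.3, edgeR 4.0.16 (TMM factors, filterByExpr, robust quasi-likelihood fit of all 7 groups, 7 residual degrees of freedom, common biological coefficient of variation 0.639) tested 13861 genes, after removal of 223, with Benjamini-Hochberg adjustment. Standard errors are the fold change over the root of F. Log2 CPM used a prior count of 2. List sums are CPM of total counts without TMM factors. The fit was also run on simulated data with less spread between libraries than here and no replicate effect. That run cannot show how often calls in these libraries are wrong.

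All 10 genes are described. From each pathway list, counts of called genes and at most 4 of them per comparison are named, marker lists are given by detection and summed CPM, and the 3 most alike genes per chemokine gene were sought. Further genes named beside these, among them Ccr7, Cxcl3, Cxcr3, Ccr4, Siglech, Adam10, Adam17, Zmynd15 and Art3, and late against early Nfkbiz and Pf4 and at day 7 Bcl3 and Birc3, were chosen after their values were seen. Alternatives were DESeq2 1.42.0, median-ratio and upper-quartile scaling, no filter, a replicate block, leaving out each library, and leaving out both day 21 libraries, the last chosen after seeing the data. Promoters are from RefSeq on GRCm38.p6, and no coordinates of the 2 builds were mixed. Some genes of the lists are not reported here.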

Additional observations from a re-analysis of the deposited data

Results flagged for a closer look

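Between days 1 and 3 and days 60 and 90, 3 chemokine genes differed by a test of the difference between these stroke groups themselves (edgeR's quasi-likelihood test). Cxcl9 was higher late by 5.42 on the log2 scale (adjusted p = 0.0149), and its 4 late libraries lay above its 4 early ones. The difference of Ppbp was -8.42 (adjusted p = 0.00451), with 4 of 4 late libraries below all early ones. That of Cxcl2 was -3.68 (adjusted p = 0.0129), with libraries that overlapped.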

How the results depend on the processing

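With 2 libraries a group, single libraries decided many calls. Leaving out each of the 14 in turn, the number of chemokine genes called ranged from 1 to 6 at days 1, 3 and 90, 1 to 7 at days 7 and 21, 2 to 8 at day 60, 1 to 6 for late against early times, 0 to 2 for day 7 against days 1 and 3 and 4 to 9 in the joint test. Over all genes the ranges were 76 to 1098 (day 1), 225 to 1815 (day 3), 355 to 2457 (day 7), 68 to 2410 (day 21), 132 to 1750 (day 60), 129 to 1800 (day 90), 119 to 695 (late against early), 0 to 126 (day 7 against days 1 and 3) and 224 to 2185 (joint), against 631, 1147, 1751, 892, 1088, 1089, 363, 1 and 999 with all libraries. Where a library left a group with 1, it was assumed to vary like the others. Signs turned, never for a called value, for Ccl5 (-0.97 to 0.88 at day 1, -0.55 to 1.71 at day 3, -2.62 to 0.39 at day 7), Cxcl9 (-4.74 to 0.85 at day 1, -1.17 to 1.27 at day 3), Cxcl2 (-0.99 to 1.80) and Ppbp (-1.53 to 2.08) at day 3, Cxcl1 (-0.39 to 4.34) at day 21 and Ccl22 (-0.12 to 0.60) for day 7 against days 1 and 3. DESeq2 called 1869, 2669, 3176, 2426, 2665, 2624, 1166, 362 and 3515 genes in the same order of comparisons, and 7 chemokine genes at day 7, 8 late against early and 6 for day 7 against days 1 and 3. The share of higher calls was 69.9% at day 1, 77.7% at day 21, 63.1% at day 60 and 67.8% late against early; DESeq2 gave 57.2, 65.6, 52.6 and 57.4%. Without both day 21 libraries all-gene counts were 1093, 1802, 1749, 1796, 676 and 13 for days 1, 3, 60 and 90, late against early and day 7 against days 1 and 3, with 6 chemokine genes late against early. With upper-quartile scaling 5 chemokine genes were called at day 7 and 5 at day 90. With the replicate block, 1195, 2002, 2766, 1584, 1953, 2006, 611, 11 and 1635 genes were called in the order above, 59.5% of those at day 1 and 64.7% at day 21 being higher, Cxcl1 at day 60 and Cxcl9 at day 90 were called as well, and Cxcl9 at day 3 was at -0.078. The labels do not say that a replicate number marks a pairing. Same-numbered libraries deviated together with r from 0.0547 to 0.880 over 21 pairs of groups, 20 of them over 0.1. That is a hint from the data and not the design. All 14 libraries correlated best with their own number. With 2 libraries a group the deviations from the group mean mirror each other, so this is no separate result. Replicate number also goes with depth. The cause of the changes between settings was not tested.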
